A study of Mus musculus with 6 samples.

Results

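Genes of the cytotoxic programme, Gzma, Gzmb, Gzmk, Gzmm, Prf1, Nkg7, Ccl5, Klrd1, Ifng and Fasl, were followed across the lymphoid cells of the mouse brain. They were taken by name: 10 genes of the 19848 in the RNA table, all of them present. The lymphoid cells were the 1768 cells, of 13052 in all, that the authors' deposited annotation calls CD8+, CD4+, ILCs (innate lymphoid cells), NKCells or BCells. Whole brains came from female C57BL/6 mice aged 12 weeks (young) or 72 weeks (aged). Mice of each age received either vehicle, which left the gut microbiota intact (control), or antibiotics, which depleted it (ABX). Brains of 24 perfused mice, 6 per group, were digested with papain, enriched for mononuclear cells on Percoll and combined into 12 pools, 3 per group. Each pool carried its own hashtag antibody, and RNA and surface antibody tags were read from the same cells by CITE-seq, a droplet method. A pool mixes mice, so pools and not cells are the replicates here.

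Cytotoxic lymphocytes kill by releasing granules: perforin, encoded by Prf1, opens the target membrane, and granzymes, serine proteases encoded by the Gzm genes, enter and cleave proteins of the target cell. Natural killer (NK) cells and CD8+ T cells are the main users of this machinery, and both can also kill through Fas ligand and act on other cells with interferon gamma and chemokines. In the brain, antigen-experienced CD8+ T cells and NK cells occur in small numbers beside the resident microglia.

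The 12 pools held 760 to 1590 cells and 5745242 to 13742781 raw RNA UMIs each. All young pools were run in 1 well of the instrument and all aged pools in another, so age and well cannot be told apart; hashtags 1 to 3 marked control and 4 to 6 marked ABX in both wells, so hashtag and treatment cannot be told apart either. The wells shared 59 cell barcodes. The CD8+ class held 728 cells (106 young, 622 aged), CD4+ 214 (72 and 142), ILCs 330 (155 and 175) and BCells 487. The NKCells class held only 9 cells, 8 of them young, and enters no test. Marker genes showed that the annotated classes are not pure. Among ILCs, 46.7% of cells had the NK cell receptor gene Ncr1 above 0 and 48.5% had Klrb1c, which encodes NK1.1, while 43.3% had Gata3 and 22.4% had Il1rl1, genes of group 2 ILCs, and 24.5% had the T cell gene Cd3d. Among BCells, 75.4% had the B cell gene Cd79a above 0 and 15.2% had Cd3d.

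The granzymes are shown first by their promoters, since Gzma and Gzmk are neighbours in the genome and, in the values given further on, were highest in different cell classes. On GRCm38.p6, Gzmk (chromosome 13, 113171630 to 113180965) and Gzma (chromosome 13, 113093824 to 113100981) are separated by 70.6 kb that holds 1 annotated gene and 0 protein-coding genes. Gzmb lies on chromosome 14, from 56258836 to 56262334. The 250 bases before each gene's annotated start, from RefSeq, are printed 5′ to 3′ on the gene's strand, which is the minus strand for all 3 (chr13:113100982-113101231 for Gzma, chr14:56262335-56262584 for Gzmb and chr13:113180966-113181215 for Gzmk). Capitals mark matches, on either strand, to a T-box core (AGGTGT, read as ACACCT on the other strand) or a RUNX core (TGTGGT, read as ACCACA), the motifs of transcription factor families that include Eomes and Tbx21, and Runx3.
Gzma: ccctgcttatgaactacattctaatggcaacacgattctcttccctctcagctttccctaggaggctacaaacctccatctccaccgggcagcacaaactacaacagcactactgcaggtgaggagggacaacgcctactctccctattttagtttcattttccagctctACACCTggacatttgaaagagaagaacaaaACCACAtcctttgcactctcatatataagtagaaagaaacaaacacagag
Gzmb: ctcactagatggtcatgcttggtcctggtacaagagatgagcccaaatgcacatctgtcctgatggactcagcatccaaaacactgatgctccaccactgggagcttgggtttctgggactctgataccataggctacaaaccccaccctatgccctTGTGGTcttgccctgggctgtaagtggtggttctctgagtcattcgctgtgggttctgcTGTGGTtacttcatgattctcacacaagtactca
Gzmk: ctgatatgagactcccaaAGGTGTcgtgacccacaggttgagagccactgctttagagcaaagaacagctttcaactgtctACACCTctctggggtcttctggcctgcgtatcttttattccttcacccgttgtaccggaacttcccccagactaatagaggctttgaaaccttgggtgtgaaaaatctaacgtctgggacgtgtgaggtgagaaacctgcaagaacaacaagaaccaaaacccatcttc
The Gzma window held 1 T-box core and 1 RUNX core, the Gzmb window 0 T-box and 2 RUNX cores, and the Gzmk window 2 T-box and 0 RUNX cores. Promoter windows were found for 8 of the 10 genes (9 windows, since Gzmm has a pair of starts), all but Ccl5 and Klrd1. The T-box core occurred in 4 of the 9 windows and the RUNX core in 5, where 11.8% and 14% of 32851 promoter windows of the same length hold them. These are letter matches, not binding sites.

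The granzymes divided between the lymphoid classes. Values are SCT-corrected UMI values per cell, that is, counts the authors adjusted to a common depth, averaged within each pool and then over pools with at least 10 cells of the class (11 pools for CD8+ and ILCs, 8 for CD4+, 12 for BCells). Gzmk, which encodes granzyme K, was a gene of CD8+ cells: 1.93 ± 1.03 (SD, n = 11 pools) in CD8+, 0.912 ± 0.814 (n = 8) in CD4+ and 0.153 ± 0.373 (n = 11) in ILCs. It was above 0 in 76.0% of CD8+ cells (exact 95% binomial interval 72.7 to 79.0%), 29.0% of CD4+ cells, 11.2% of ILCs and 0 of 9 NKCells, where 0 of 9 allows a share of up to 33.6% by the same interval. CD8+ was above CD4+ in 8 of 8 pools with both classes and above ILCs in 10 of 10. These intervals cover counting error only.

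Gzma and Gzmb, the granzymes of NK cells and of armed T cells, were highest in ILCs and NKCells. Gzma averaged 18.7 ± 10.9 (SD, n = 11 pools) in ILCs against 2.13 ± 4.83 (n = 11) in CD8+, 0.441 ± 1.16 (n = 8) in CD4+ and 0.569 ± 0.963 (n = 12) in BCells, and the 9 NKCells had a mean of 51.4. Gzmb averaged 4.22 ± 2.07 (n = 11) in ILCs, 0.907 ± 0.528 (n = 11) in CD8+ and 0.272 ± 0.296 (n = 8) in CD4+, with a mean of 10.9 in the 9 NKCells. For both genes, ILCs were above CD8+ in 9 of the 10 pools with both classes. The lower end of the order was not resolved: the CD4+ and BCells ranges of Gzma overlapped within their SD. Gzma was above 0 in 28.2% of ILCs and 5.77% of CD8+ cells, and Gzmb in 35.8% and 26.2%. Gzmm, granzyme M, was sparse everywhere: 4.26% of CD8+ cells, 1.40% of CD4+ cells and 1.82% of ILCs had a value above 0.

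Prf1 and Klrd1 sided with Gzma and Gzmb. Prf1 averaged 2.17 ± 1.19 (SD, n = 11 pools) in ILCs, 0.580 ± 0.205 (n = 11) in CD8+ and 0.119 ± 0.144 (n = 8) in CD4+, and ILCs were above CD8+ in 9 of 10 pools. Klrd1, which encodes CD94, a partner of the NKG2 receptors, averaged 4.04 ± 1.67 in ILCs, 1.41 ± 0.560 in CD8+ and 0.435 ± 0.264 in CD4+, with ILCs above CD8+ in 10 of 10 pools. The shares of cells above 0 were closer than the levels: Prf1 was above 0 in 43.6% of ILCs and 41.5% of CD8+ cells, and Klrd1 in 58.8% and 44.9%.

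Nkg7, a granule membrane protein, and Ccl5, a chemokine stored and released by memory CD8+ T cells and NK cells, were the most widely detected of the genes. Nkg7 was above 0 in 98.6% of CD8+ cells, 69.1% of ILCs and 63.6% of CD4+ cells, and Ccl5 in 96.4%, 69.4% and 61.2%. Nkg7 averaged 13.3 ± 2.23 (SD, n = 11 pools) in CD8+, 10.8 ± 4.10 (n = 11) in ILCs and 5.09 ± 1.65 (n = 8) in CD4+. Ccl5 averaged 65.4 ± 24.0 in CD8+, 44.6 ± 15.7 in ILCs and 25.6 ± 14 in CD4+. CD8+ was above ILCs in 7 of 10 pools for each gene, and the SDs of both classes overlapped.

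Ifng and Fasl did not place the T cell classes above ILCs in a steady order within pools. Ifng, interferon gamma, averaged 1.76 ± 0.551 (SD, n = 8 pools) in CD4+, 1.63 ± 0.823 (n = 11) in CD8+ and 0.973 ± 0.567 (n = 11) in ILCs. CD8+ was above CD4+ in 4 of 8 pools and above ILCs in 6 of 10, and CD4+ was above ILCs in 4 of 7. For Fasl, CD8+ was above ILCs in 5 of 10 pools and CD4+ in 4 of 7. Fasl, Fas ligand, averaged 0.996 ± 0.278 in CD8+, 0.944 ± 0.257 in CD4+ and 0.933 ± 0.449 in ILCs, differences well inside 1 SD. Both were low in BCells, with 8.42% of cells above 0 for Ifng and 10.3% for Fasl.

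For reference, the same shares were read in microglia, a class outside the lymphoid cells. Their median depths were 6809 UMIs in the young well and 7118 in the aged well. There the share of cells above 0 was 0.932% (young) and 0.619% (aged) for Gzma, 0.694% and 0.367% for Gzmb, 0 of 5044 cells and 0.436% for Gzmk, and 0.159% and 0.184% for Prf1. Ccl5 was higher, at 4.78% and 11.4%, and Klrd1 stood at 4.42% and 3.65%. Whether these are background or RNA of the microglia themselves was not tested. Gzmm was above 0 in 0.317% and 0.413% of microglia. The shares given for CD8+ cells and ILCs were all above these.

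**Figure D1:**
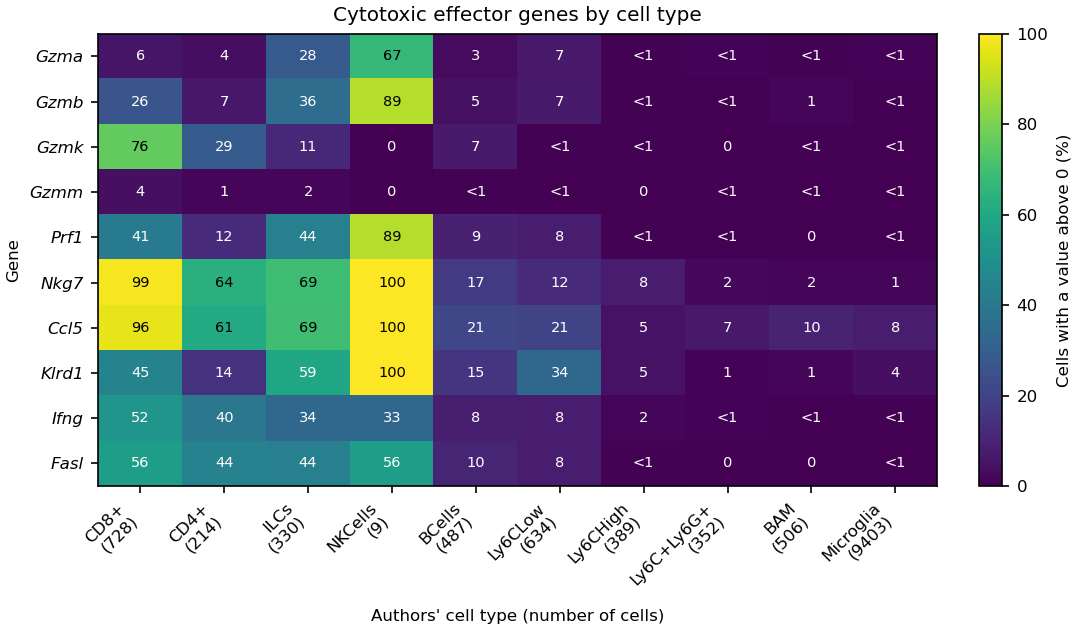
Share of cells (%) with a value above 0 for each of the 10 genes (rows) in each of the authors' cell classes (columns, with the number of cells), given by colour and printed rounded. Gzma, Gzmb, Prf1 and Klrd1 are detected most often in NKCells and then in ILCs, whereas Gzmk is detected in 76.0% of CD8+ cells and in 0 of the 9 NKCells.

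Summed over all 13052 cells, ILCs held 51.1% of the Gzma value and CD8+ cells 6.90%, while CD8+ cells held 79.7% of the Gzmk value and CD4+ cells 10.4%. The lymphoid classes together held 98.3% of Gzmk, 91.0% of Nkg7 and 89.7% each of Ccl5 and Fasl, but only 65.7% of Gzma and 64.9% of Klrd1. A CD8+ cell had a median of 5 of the 10 genes above 0, and 5 of 728 cells had none. An ILC also had a median of 5, but 76 of 330 had none. The median was 3 in CD4+ cells, 6 in the 9 NKCells and 0 in BCells.

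Within CD8+ cells Gzma was above 0 with Gzmk in 32 cells and without it in 10. In the young well Gzmk was present in 64.3% of the 14 Gzma-positive cells and in 34.9% of all CD8+ cells, and in the aged well in 82.1% of 28 and in 83.0%. The CD8+ Gzma signal came from very few cells: 9 cells with values of at least 20 held 87.3% of the summed value of 765. In young control pool 1, 5 cells held 500 of 502. The Gzma mean of CD8+ cells therefore describes a handful of cells. Eomes, which encodes a T-box factor of memory T cells and NK cells, was above 0 in 51.4% of Gzmk-positive and 30.2% of all CD8+ cells in the young well, and in 52.5% and 46.8% in the aged well.

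The study's age comparison was clearest in ILCs. In all, 5 of the 9 genes that passed the filter on low values were lower in aged control than in young control ILCs, and none was higher (limma, Benjamini-Hochberg adjusted over 8335 genes). In the same comparison 0.912% of all genes were called, 0.528% in the lower direction. Pools of these groups did not overlap, with the aged pools lower, for 6 of the 9 and for 8.96% of all genes. The median log2 change was -1.12 over the 9 genes and -0.10 over all genes. Pool means were used, 3 pools against 3, as log2(value + 0.05), so small values are compressed. Gzmm did not pass the filter in ILCs. The count became 0 when aged ABX pool 2, with 5 ILCs, was admitted, and it ranged from 1 (without young control pool 1) to 6 with 1 pool left out.

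Prf1 in ILCs was 4.16, 2.76 and 3.94 in the young control pools and 0.364, 1.15 and 1.097 in the aged control pools. The groups did not overlap, and Prf1 fell by 2.12 on the log2 scale (SE 0.33, adjusted p = 0.0011). Gzmb was 6.88, 4.40 and 4.44 in young control pools and 0.182, 1.87 and 1.87 in aged control pools, again without overlap, and fell by 2.44 (SE 0.47, adjusted p = 0.0081). Gzma was 26.8, 14.1 and 37.2 against 0.091, 6.85 and 7.45, and fell by 3.64 (SE 0.83, adjusted p = 0.031). Aged control pool 1, with 11 cells, was lowest for all 3 genes. The Gzma call was lost without any 1 of young control pools 1 and 3, the 3 young ABX pools and aged ABX pools 1 and 3 (changes of -4.62 to -1.75 over all 11 pools, adjusted p up to 0.16), and the Gzmb call without young control pool 1 (adjusted p = 0.079).

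Nkg7 was 17.4, 11.8 and 14.6 in young control ILC pools and 5.27, 10.6 and 5.16 in aged ones, with no overlap, and fell by 1.12 on the log2 scale (SE 0.21, adjusted p = 0.0064). Klrd1 was 6.44, 4.08 and 4.34 against 2.27, 1.90 and 2.61, and fell by 1.1 (SE 0.20, adjusted p = 0.0058). Ccl5 was 59.3, 44.9 and 70.8 against 19.5, 58.4 and 19.9, where aged control pool 2 lies within the young range, and its log2 change of -1.02 did not pass (adjusted p = 0.062). The calls of Nkg7 and Klrd1 were lost without young control pool 1 (-0.99 and -0.89, adjusted p = 0.081 and 0.092). Gzmk was at or near 0 in every ILC pool except young control pool 2 (0.360) and aged control pool 2 (1.23).

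**Figure D2:**
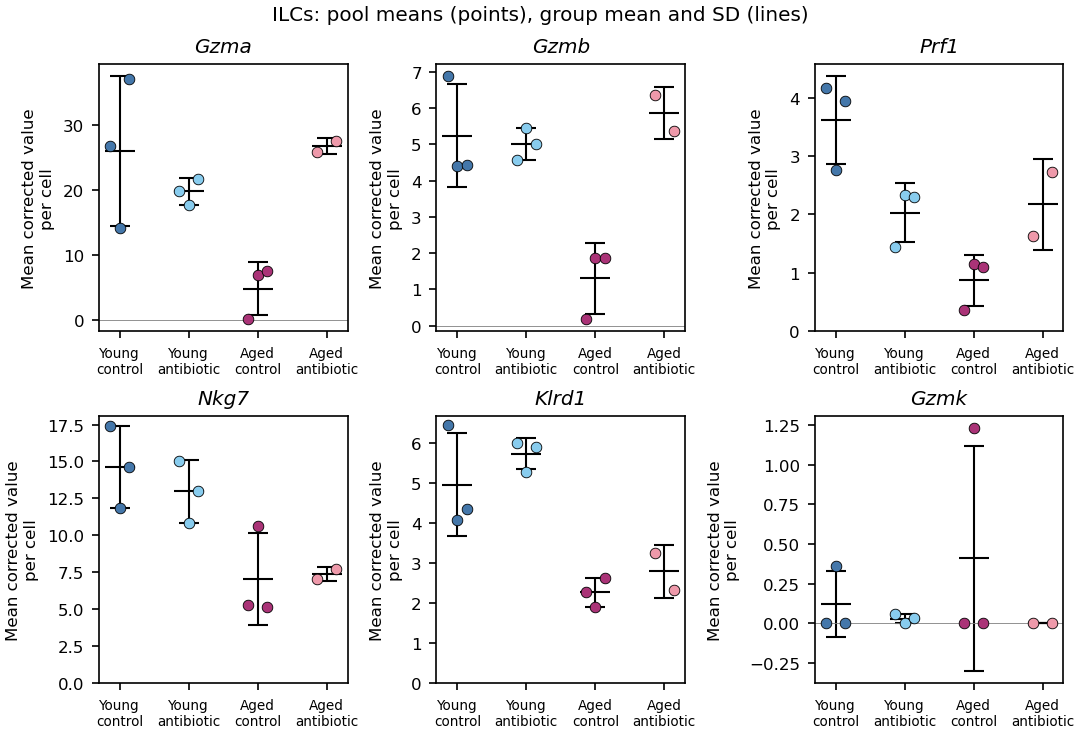
Mean SCT-corrected value per cell of 6 of the genes in the ILCs of each pool with at least 10 such cells (points), with the mean and SD of each group (lines); ABX groups are labelled antibiotic. In the control groups the young pools lie above the aged pools for Gzma, Gzmb, Prf1, Nkg7 and Klrd1.

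Some other genes of cytotoxicity and NK cell identity were also lower in aged control ILCs. Of 59 tested genes in lists of granule proteins, exocytosis, receptors, transcription factors and cytokines, 13 were lower, 1 was higher and 45 did not pass, where 0.912% of all genes were called and 0.528% in the lower direction. Klrb1c fell by 2.32 on the log2 scale (adjusted p = 0.00012), Klrk1, which encodes the activating receptor NKG2D, by 1.89 (adjusted p = 0.00012), and Serpinb6b, a serpin gene, by 1.82 (adjusted p = 0.0017). Klra7, a Ly49 receptor gene, had a change of -2.53 (adjusted p = 0.038), and Cd244, which encodes the receptor 2B4, of -1.70 (adjusted p = 0.043). With 1 pool left out at a time, the Klra7 call held in 1 of 11 fits (changes of -3.56 to -1.54, adjusted p up to 0.22) and the Cd244 call in 2 of 11 (-2.11 to -1.21, adjusted p up to 0.24). The gene that rose was Csf2, the cytokine GM-CSF, by 2.84 (adjusted p = 0.0022).

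The make-up of the ILC class moved with this result. Cells with Ncr1 or Klrb1c above 0 and without the CD3 genes, called NK-marked here, made up 115 of 155 young ILCs (74.2%, 60 to 84.4% over pools) and 43 of 175 aged ILCs (24.6%, 0 to 40% over pools). The summed level of 6 NK cell markers was 16.8 to 19.6 in young control pools and 4.00 to 7.16 in aged control pools, and that of 7 group 2 ILC markers was 4.19 to 6.28 and 9.17 to 20.2. Cells with CD3 genes numbered 74, of which 51 were among the 87 ILCs of aged control pool 2, and 98 cells had neither mark.

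Nearly all of the granule genes' RNA in ILCs lay in the NK-marked cells. They held 97.0% of the summed Gzma, 94.6% of Gzmb, 93.4% of Prf1 and 91.1% of Klrd1, but 74.6% of Nkg7 and 71.1% of Ccl5. The cells with CD3 genes held 99.2% of the ILC Gzmk. Among NK-marked cells of control mice, Gzma averaged 36.5 over 63 young cells and 28.0 over 27 aged cells, and Gzmb 7.24 and 6.93. In the same cells Prf1 averaged 5.10 (young) and 3.74 (aged), Klrd1 6.86 and 7.52, and Nkg7 19.5 and 15.6. Fitted on pools with at least 10 NK-marked cells, an alternative chosen after seeing the data that leaves out aged control pool 1 with 4 such cells, 0 of 8 tested genes were called between aged and young control mice (4 of 8192 genes in all, 591 at an unadjusted p below 0.05 by limma). The log2 changes there were -0.15 for Gzma, 0.08 for Gzmb, -0.30 for Prf1, 0.21 for Klrd1 and -0.28 for Nkg7. All were smaller in size than over the whole class, but the pools differ, so this is not a like-for-like comparison. The whole-class fit includes aged control pool 1, which was lowest for Gzma, Gzmb and Prf1. The NK-marked fit has only aged control pools 2 and 3, with 13 and 10 such cells. The part of the make-up in the age result was not tested.

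**Figure D3:**
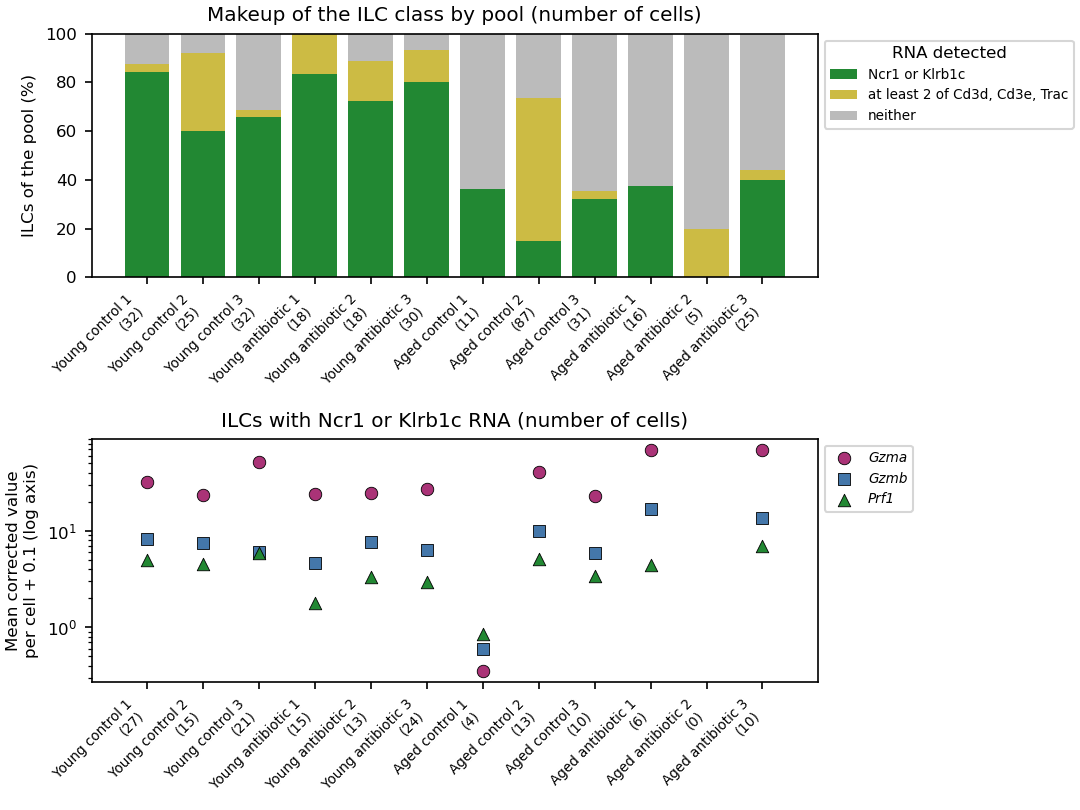
Top, share of each pool's ILCs (%) that are NK-marked, have CD3 genes or have neither; bottom, mean SCT-corrected value per NK-marked ILC of Gzma, Gzmb and Prf1 in each pool, on a log axis; ABX pools are labelled antibiotic. NK-marked cells are 60 to 84.4% of ILCs in young pools and 0 to 40% in aged pools, and among NK-marked cells aged control pool 1, with 4 of them, lies apart at 0.25 for Gzma.

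Within a well, NK1.1 antibody tags were higher on NK-marked ILCs than on ILCs with neither mark. They averaged 113 and 46.7 per cell in the young well, and 26.5 and 11.1 in the aged well. CD8+ cells carried 72.7 NK1.1 tags per cell in the young well and 22.0 in the aged well. Tags of CD335, the protein of Ncr1, did not separate these ILCs. They were 0 on both in the young well, and 0.140 (NK-marked) and 0.179 (neither mark) per cell in the aged well. Tags are compared only within a well, since CD8a on CD8+ cells itself averaged 535 per cell in the young well and 118 in the aged well. In aged control pool 2, the ILCs with CD3 genes carried 69.0 CD8a tags per cell, the NK-marked ones 1.38 and CD8+ cells 97.5. CD3 tags in that pool averaged 3.12, 0.385 and 9.56 per cell in the same order. The label ILCs thus covers NK-marked cells, cells with group 2 ILC genes and, mainly in 1 pool, cells with CD3 genes and CD8a tags.

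Antibiotics gave no call for these genes in ILCs: 0 of 9 at 12 weeks (0.06% of all genes called by limma), 0 of 9 at 72 weeks (0.084%), 0 of 9 averaged over the ages (0.012%) and 0 of 9 for the difference of the ages (0.048%). At an unadjusted p below 0.05, 369, 574, 466 and 478 of the 8335 genes passed in these 4 comparisons. The largest changes were in aged mice, where the ABX pools lay above the control pools without overlap for 3 of the 9 genes and 12.4% of all genes. Gzmb was 0.182, 1.87 and 1.87 in the aged control pools and 6.38 and 5.36 in the aged ABX pools with enough cells, without overlap, at a log2 change of 2.63 (SE 0.53, adjusted p = 0.056). That change passed when any 1 of the 3 aged control pools was left out (1.62 to 3.14). Gzma was 0.091, 6.85 and 7.45 against 25.9 and 27.6, also with every ABX pool higher, and a log2 change of 3.79 (SE 0.93, adjusted p = 0.18). Aged ABX pool 2 had 5 ILCs, with Gzma and Gzmb at 0, and is not in this fit. NK-marked cells were 20.9% of aged control and 34.8% of aged ABX ILCs. Averaged over these cells (27 and 16) and not over pools, Gzma was 28.0 and 69.1, and Gzmb 6.93 and 14.7. By pool, Gzma in them was 0.25, 40.2 and 23.1 in aged control (4, 13 and 10 cells). It was 69.2 and 69.1 in aged ABX pools 1 and 3 (6 and 10 cells), and aged ABX pool 2 had no such cell. The part of the make-up in the difference was not tested.

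In young mice Prf1 stood at 4.16, 2.76 and 3.94 in control ILC pools and 1.44, 2.33 and 2.3 in ABX pools. These do not overlap, the only such case among the 9 genes in the lower direction (4.26% of all genes), and the exact permutation test gave its smallest possible two-sided p of 0.1 (0.571 adjusted over 40 such tests, of which 7 reached 0.1). Of the other pathway genes 1 of 59 passed, Csf2, lower with antibiotics in aged ILCs (log2 change -3.49, adjusted p = 0.0050, and 0.093 without aged ABX pool 1) and over both ages (-2.90, adjusted p = 0.00033).

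With both treatment arms combined, a comparison chosen after seeing the data, 4 of 9 genes were lower in aged than in young ILCs (3.11% of all genes called, 1.25% in the lower direction). Klrd1 fell by 1.07 on the log2 scale (SE 0.15, adjusted p = 0.00013), Nkg7 by 0.96 (SE 0.16, adjusted p = 0.00061), Fasl by 1.08 (SE 0.24, adjusted p = 0.0098) and Prf1 by 1.02 (SE 0.25, adjusted p = 0.020). The Fasl call was lost without aged ABX pool 1 (-0.94, adjusted p = 0.11), and the Prf1 call without any 1 of young control pools 1 and 3, young ABX pools 2 and 3 and aged ABX pool 1 (adjusted p up to 0.22). Gzma (-1.60, adjusted p = 0.22) and Gzmb (-1.11, adjusted p = 0.10) did not pass in this comparison. Of the pathway genes 18 were lower and 1 higher, among them Xcl1 (-1.65, a call that held in 7 of 11 fits with 1 pool left out), Klrc1 (-1.51) and Klrc2 (-1.47) at the lower end.

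In CD8+ cells Gzmk had higher values in aged than in young pools. It was 0.935 and 1.71 in the young control pools with at least 10 CD8+ cells and 0.5, 1.60 and 0.111 in the young ABX pools. It stood at 2.73, 2.82 and 3.03 in aged control pools and 2.71, 2.54 and 2.59 in aged ABX pools. Every aged pool was above every young pool, which held for 1 of the 10 genes and 1.11% of all genes. The share of CD8+ cells with Gzmk was 34.9% in the young and 83.0% in the aged well, and it ranged from 78.6 to 90.9% over aged control pools and from 35.5 to 52.9% over young control pools.

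The planned test of age, within control mice, called 0 of 10 genes in CD8+ cells (0.241% of all genes called; 945 of 8287 genes at an unadjusted p below 0.05), with a log2 change of 1.14 for Gzmk (SE 0.60, adjusted p = 0.50). Over both arms, added after seeing the data, Gzmk rose by 1.74 (SE 0.40, adjusted p = 0.041), again 1 of 10 genes, where 1.79% of all genes were called and 0.736% in the higher direction. That call was lost when any 1 of 9 of the 11 pools was left out (all but young ABX pools 2 and 3), with changes of 1.31 to 2.15. The CD8+ class of the aged pools also held B cell marker RNA: 6 B cell markers summed to 0.677 to 1.35 in young control pools and 1.38 to 50.3 in aged control pools (0.667 to 1.22 and 11.4 to 73.6 in ABX pools), mainly Igkc. Its part in the result was not tested.

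**Figure D4:**
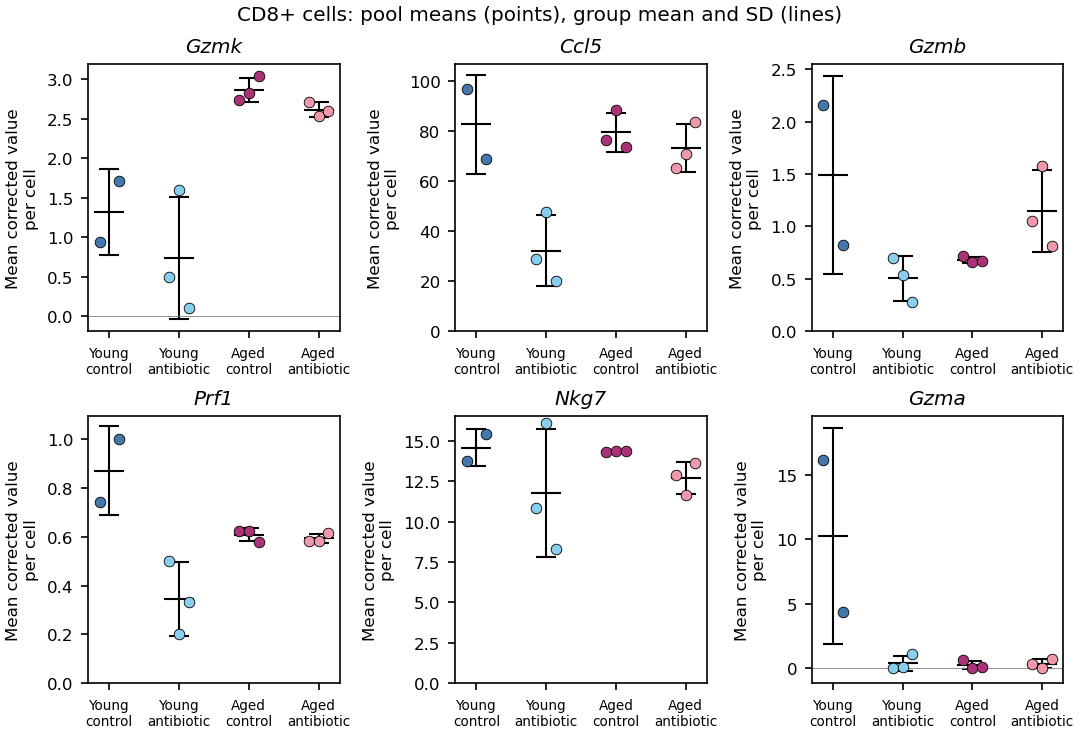
Mean SCT-corrected value per cell of 6 of the genes in the CD8+ cells of each pool with at least 10 such cells (points), with the mean and SD of each group (lines); ABX groups are labelled antibiotic. Gzmk lies between 0.111 and 1.71 in the young pools of the fit and between 2.54 and 3.03 in the aged pools, and Ccl5 is lower in the 3 young ABX pools than in the young control pools.

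Among the other pathway genes in CD8+ cells, 3 of 53 passed in the comparison of age over both arms, 2 higher and 1 lower, where 1.79% of all genes were called and 0.736% in the higher direction. Tnfsf10, the death ligand TRAIL, rose by 1.08 in log2 (adjusted p = 0.038), a call that held in 2 of 11 fits with 1 pool left out (adjusted p up to 0.14). Klra7 had a change of -2.18 (adjusted p = 0.0016). With the aged pools near 0, Klra7 passed the filter on low values only through the young pools. Its call is therefore no independent support for a fall, and its size depends on the constant added before the log. Over 19 alternatives the Klra7 change ran from -3.26 to -0.184, and the call held in 18. Within control mice none of the 53 passed, and Tnfsf10 had the smallest p (log2 change 1.47, adjusted p = 0.13).

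In young mice 1 of the 10 genes, Ccl5, was called lower in ABX than in control CD8+ cells (0.145% of all genes called, 0.0603% in the lower direction). Ccl5 was 96.5 and 68.6 in the young control pools and 28.8, 47.7 and 20.1 in the young ABX pools. The groups did not overlap, and Ccl5 fell by 1.43 on the log2 scale (SE 0.25, adjusted p = 0.039). In the CD8+ class of these pools 6 neutrophil markers summed to 2.29 to 124 in young control and 1.72 to 2.13 in young ABX pools, and their part in the result was not tested. Young control pool 2, left out with 5 CD8+ cells, had 57.2; with pools of at least 5 cells admitted the change was -1.26 and did not pass (adjusted p = 0.056). The call rests on 2 control pools and was lost without young control pool 3, without young ABX pool 1 and without any 1 of the 6 aged pools, which only share the estimate of the spread (adjusted p up to 0.088).

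The other genes moved less certainly. Prf1 was 0.742 and 1.00 in young control against 0.5, 0.200 and 0.333 in young ABX CD8+ pools (log2 change -1.28, adjusted p = 0.064). Gzmb was 2.16 and 0.824 against 0.700, 0.533 and 0.278 (-1.41, adjusted p = 0.099). Neither pair of groups overlapped, and neither change passed. The ABX pools were lower without overlap for 5 of the 10 genes (6.56% of all genes) and higher for 1 (14.9%), Klrd1. Gzma had a change of -5.51 (adjusted p = 0.061), but 5 cells of young control pool 1 carried most of its value. Klrd1 was the only one of the 10 with a change above 0 (0.89, adjusted p = 0.12). The median over the 10 genes was -1.11 and over all genes 0.13.

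In aged mice 0 of the 10 genes were called in CD8+ cells (0.0121% of all genes called; 85 of 8287 at an unadjusted p below 0.05). Ccl5 was 76.4, 88.3 and 73.5 in aged control and 65.0, 70.7 and 83.5 in aged ABX pools, which overlap (log2 change -0.12, SE 0.22, adjusted p = 1.00). Gzmb was 0.714, 0.656 and 0.669 against 1.05, 1.57 and 0.817, without overlap, and Gzmk and Nkg7 (means of 14.4 and 12.7) were higher in the 3 control pools than in the 3 ABX pools. Groups did not overlap for 1 gene in the higher direction (7.23% of all genes) and 2 in the lower (5.54%). For each of these 3 genes, the exact permutation test gave its smallest p of 0.1 (adjusted p = 0.571). The difference in the antibiotic effect between ages called 0 of 10 (0% of all genes; 713 at an unadjusted p below 0.05), so an effect on Ccl5 particular to young mice was not shown. Over both ages 0 of 10 were called (0.0121%). None of the 53 pathway genes passed in these comparisons. The smallest p belonged to Ifngr1, a subunit of the interferon gamma receptor, in aged mice (0.31, adjusted p = 1.00) and to Klra9, a Ly49 gene, for the difference (-1.96, adjusted p = 0.47).

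CD4+ cells gave the same direction for Gzmk with age. Gzmk was 0.188 and 0 in the young control pools with at least 10 CD4+ cells, 0.0800 in the 1 young ABX pool, 1.30 and 1.65 in the aged control pools and 0.600, 2.20 and 1.28 in the aged ABX pools. Every aged pool was above every young pool among these; between the control groups alone this held for 2 of 9 genes and 14.8% of all genes. Between control pools Gzmk rose by 3.80 on the log2 scale (SE 0.63, adjusted p = 0.017), 1 of 9 genes, with 0.0364% of 8241 genes called. Eomes had a change of 3.98 beside it (SE 0.64, adjusted p = 0.017), the 1 of 55 pathway genes that passed. Eomes was above 0 in 1.39% of the 72 young and 19.0% of the 142 aged CD4+ cells. The young share came from young ABX pool 2, which is not in the fit. In every young pool of the fit Eomes was 0, against 0.467 to 1.15 in the aged pools. It passed the filter on low values only through the aged pools, so its call is no independent support for a rise. The size of its change depends on the constant added before the log. Its call held in 3 of 8 fits with 1 pool left out (changes of 3.37 to 4.58). Over 15 alternatives the Eomes change ran from 0.440 to 6.22, and the call held in 5. In aged CD4+ cells Eomes was above 0 in 24 of the 56 with Gzmk and in 3 of the 86 without.

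The CD4+ comparison has 2 pools against 2 and few cells, 16 and 14 in the young pools. The Gzmk call was lost without young control pool 3, aged control pool 2, aged control pool 3 or aged ABX pool 2, with changes of 2.67 to 4.92. Over 15 alternatives the Gzmk change ran from 0.690 to 5.05, and the call held in 7. With the young pools low, its size also depends on the constant added before the log. With antibiotics in aged mice, 0 of 9 genes were called in CD4+ cells (0.0121%; 354 of 8241 genes at an unadjusted p below 0.05). Young mice had too few CD4+ pools for that test.

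In BCells most of the genes were detected in fewer cells than in the other classes but in more than in microglia. Ccl5 was above 0 in 21.1% of BCells and 7.87% of microglia, Nkg7 in 17.0% and 1.45%, Klrd1 in 15.2% and 4.06%, and Prf1 in 9.03% and 0.17%. None of 9 was called for antibiotics at either age, averaged over the ages or for the difference (0% of all genes in each; 453, 230, 330 and 328 of 8383 at an unadjusted p below 0.05), nor for age within control mice (0.0596%). Over both arms Gzmk, 1 of the 9, rose with age by 2.51 in log2 (SE 0.33, adjusted p = 0.0011; 0.358% of all genes called, 0.179% in the higher direction). It lay between 0.138 and 0.353 in the 6 aged pools and between 0 and 0.008 in the 6 young ones, without overlap (0.274% of all genes). Gzmk passed the filter on low values here only through the aged pools. With the young pools at or near 0, the size of its change depends on the added 0.05. Over 20 alternatives the change ran from 0.193 to 4.50, and the call held in all 20. Cells of this class with CD3 genes held 97.0% of its Gzmk. They were 7.79% of young and 19.3% of aged BCells, and their part in the result was not tested. NK-marked cells held 85.5% of the class's Gzma. Cells with neither mark held 27.6% of its Klrd1 and 12.2% of its Prf1.

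Across 18 profiles (9 cell classes in each well), the genes that were not on the list and tracked the mean profile of the 10 most closely were Txk, a T and NK cell kinase (Pearson r = 0.983), Il2rb, a subunit of the interleukin-2 and interleukin-15 receptors (0.979), Ctsw, a cathepsin of cytotoxic cells (0.976), Sytl3, a synaptotagmin-like protein gene (0.974), and Sh2d2a, a T cell adaptor gene (0.973). They were ranked among 10208 genes, and all 5 were highest in young ILCs. The profiles share libraries and cells, so this is a description. Of the 10 genes themselves, Nkg7 (0.979), Ccl5 (0.975) and Fasl (0.959) lay closest to the mean profile that includes them, and Gzmk (0.696) and Gzmm (0.691) farthest from it.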

How the data were processed

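RNA and antibody tags were read from the same droplets. Per the submitters' processing notes, the authors used Cell Ranger 3.0.2, Seurat 3.0.1 and mm10; the filters on cells and doublets, and how the cell classes were drawn, are not given in the sources used here. The deposited RNA table holds SCT-corrected UMI values, a score that is whole-numbered but no raw count: each of the 13052 cells sums to its SCT total in the deposited metadata, and 62 also to the raw total. The antibody tags are deposited as raw counts. Cell classes and hashtags are the authors'; 35 metadata columns were not used.

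Values were averaged per pool and class (at least 10 cells a pool, at least 2 pools a group), and genes averaging 0.05 or more across pools were tested on log2(mean + 0.05) with limma 3.58.1 in R 4.3.3, all groups in 1 fit, with Benjamini-Hochberg adjustment over all genes and a threshold of 0.05. All 10 genes passed that filter in CD8+ cells, and 9 (all but Gzmm) in the other classes. Pools under 10 cells were left out: young control pool 2 for CD8+, aged ABX pool 2 for ILCs and, for CD4+, young control pool 2, young ABX pools 2 and 3 and aged control pool 1. A count model was not used, since the values are not raw counts. Pool means of each gene in control and ABX mice of the same age were also compared by a two-sided exact permutation test. It was run for aged CD8+ cells, young ILCs and BCells of both ages, and cannot go below 0.1 with 3 pools against 3. A pool mixes mice, and p-values measure the spread between pools. The scripts were tested on simulated data. NK-marked cells have Ncr1 or Klrb1c above 0 and are not cells with CD3 genes; cells with CD3 genes have at least 2 of the 3 genes Cd3d, Cd3e and Trac above 0. Genes were named by rule: all 10, up to 6 pathway genes that passed per comparison (largest change first), in CD8+ cells the 1 of smallest p where none passed, and the 5 genes of most similar profile. Results for 1 pathway gene that the rule names are not reported here. Of 68 pathway genes listed, 63 are in the table. Genes and lists were chosen with earlier results of these data known.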

Additional observations from a re-analysis of the deposited data

Results flagged for a closer look

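Outside the lymphoid classes, Ly6CLow cells, a myeloid class of the authors' annotation that no comparison here uses, held 33.5% of the summed Gzma value over all cells. Among them, 62 cells with Ncr1 or Klrb1c and without CD3 genes held 99.7% of the Ly6CLow Gzma, with means of 59.6 for Gzma, 11.6 for Gzmb and 7.55 for Prf1. In microglia, Gzma was above 0 in 0.932% of young and 0.619% of aged cells.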

How the results depend on the processing

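The numbers of called genes among the 10 moved with several choices; the cause was not tested. With a pseudocount of 0.5 they became 2 in CD8+ cells for antibiotics in young mice, 1 for age in control mice and 2 for age over both arms, and 1 in ILCs for antibiotics in aged mice (Gzmb, log2 change 2.02). With a pseudocount of 0.01 they became 0 for age in CD4+ cells, 0 for age over both arms in CD8+ cells and 3 for age in ILCs. Without the filter on low values they became 0 for age in CD4+ cells, and 0 in CD8+ cells for antibiotics in young mice and for age over both arms. With pools of at least 5 cells they became 0 for age in CD4+ cells, 0 for antibiotics in young CD8+ cells and 0 for age in ILCs, and with at least 20 cells 3 for age in ILCs. With the mean of log2 values per cell they became 0 for age in CD4+ cells, 2 for age, 4 for age over both arms, 1 over both ages and 1 for the difference in CD8+ cells, 7 for age over both arms in ILCs and 2 in BCells. Weighting pools by cells gave 1 for age, 2 for age over both arms and 1 over both ages in CD8+ cells, and 2 for age over both arms in BCells. Choices made after seeing the data were the comparison over both arms and those by marker genes. Without cells with Ncr1 or Klrb1c, CD8+ cells gave 2 for antibiotics in young mice and 0 for age over both arms. Without cells with CD3 genes, ILCs gave 1 for the difference. In NK-marked ILCs alone age gave 0, and Gzmb (0.0832) and Klrd1 (0.211) changed sign. Cells with at least 2000 raw UMIs gave 1 for age in BCells. Leaving out 1 pool at a time gave 0 to 6 called genes for antibiotics in young CD8+ cells (6 without young ABX pool 2), 0 to 1 for age, 0 to 2 for age over both arms, 0 to 1 over both ages and 0 to 1 for the difference; 0 to 1 for age in CD4+ cells; 1 to 6 for age in ILCs (1 without young control pool 1), 2 to 8 for age over both arms (8 without aged control pool 2), 0 to 3 for antibiotics in aged mice and 0 to 2 for the difference; and 0 to 1 for age and 1 to 2 for age over both arms in BCells. In ILCs, the calls of Gzmb, Nkg7 and Klrd1 with age were lost without young control pool 1, and that of Gzma without any 1 of 7 of the 11 pools. No paired analysis was possible because control and ABX pools share no hashtag number and the labels number libraries, not pools. Requiring a value of at least 2 moved 28 of 50 shares of cells beyond their intervals, and a depth of at least 2000 UMIs moved 0 of 50. Of 160 class means recomputed, 1 lay more than 1 SD over pools from its main value. These included the means of each well alone. The SD spans the pools of both wells, so this rule can hardly show a difference between wells. Gzmk in CD8+ cells, at 0.970 in the young and 2.74 in the aged well, counted as unmoved. Few cells per pool (5 to 31 CD8+ cells in young pools) limit the precision.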

Other observations

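Cells with the NK marks and without CD3 genes were spread over the authors' classes. There were 274 in all: 158 among ILCs, 62 among Ly6CLow cells, 14 among BCells and all 9 NKCells. The 26 in the microglia class had none of the granzymes, Prf1, Nkg7, Ccl5, Ifng or Fasl above 0. In the young well, the median of CD11b tags was 261 on the Ly6CLow cells and 67 on the ILCs that carried the NK marks, and in the aged well 30.5 and 15.

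Klrd1 was also found in Ly6CLow cells without NK marks or CD3 genes, in 157 of 551 (28.5%). Of these 157, 86.6% had Cd209a and 66.2% had Itgax above 0, genes of dendritic cells, against 11.7% and 27.9% of the 394 without Klrd1. Ccr2 (84.1% against 43.1%), Mrc1 (54.8% against 26.6%), Klrk1 (45.2% against 10.9%) and Gzmb (1.91% against 0%) were also detected more often with Klrd1. Lyz2 (94.9% against 99.0%) and Nkg7 (0.637% against 3.05%) were detected less often. The median depth of the cells with Klrd1 was 14090 UMIs against 7132.5, and the part of depth in these differences was not tested.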
